A study of Sus scrofa with 2 samples.

Results

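Expression of 10 genes of the Notch pathway was examined in PSI, a clone of smooth muscle cells that came from the distal small intestine (ileum) of a pig. The genes were taken by symbol: the receptors NOTCH1, NOTCH2 and NOTCH3, the ligands JAG1, JAG2, DLL1 and DLL4, and the target genes HES1, HEY1 and HEYL. Each symbol was paired with 1 of the 25880 gene identifiers in the deposited table, so all 10 were measured. The data set held 2 RNA-seq libraries of the clone, called replicate 1 and replicate 2. The cells were grown in DMEM medium with 10% fetal bovine serum and antibiotics, and the labels gave no animal, strain, age or passage. With 1 group and no tissue, other cell or treatment beside it, no condition could be compared, and because the line is 1 clone the values describe that clone alone. Whether the duplicates came from separate cultures was not stated, so an SD here describes how far these libraries lie apart and may reflect technical variation only.

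Notch receptors are membrane proteins that are activated by Jagged or Delta-like ligands on a neighbouring cell. Ligand binding exposes the receptor to cleavage by an ADAM protease and then by gamma-secretase, and the freed intracellular domain enters the nucleus, binds RBPJ with a Mastermind-like coactivator and switches on HES and HEY repressor genes. In blood vessels, Notch signalling between endothelium and smooth muscle, with JAG1 and NOTCH3 as prominent partners, is known to shape smooth muscle differentiation, and in the gut epithelium Notch directs the choice between absorptive and secretory cells.

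Expression was given by the authors as FPKM, fragments scaled to the length of the gene model and to the library total, which allows comparison of levels between genes. Steps in the FPKM values gave library totals of 35176565 and 32217729 in replicates 1 and 2, and whole reads behind each value. Of the markers of differentiated smooth muscle, 7 of 8 reached 1 FPKM in both libraries, led by ACTA2. Of all identifiers with a symbol, 61.5% reached that level. MYH11, the smooth muscle myosin heavy chain and a defining marker, did not, with 0.461 and 0.522 FPKM. The pairing of identifiers with symbols was not checked by position for MYH11 or for any other gene. The median coefficient of variation between the libraries was 2.62% over identifiers whose mean reached 1 FPKM.

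The 10 genes spanned the range from abundant to nearly absent transcripts, with JAG1, NOTCH2 and NOTCH1 far above the target genes and the Delta-like ligands at the bottom. The order of the mean levels was JAG1, NOTCH2, NOTCH1, NOTCH3, HES1, HEY1, JAG2, HEYL, DLL1 and DLL4. The places of NOTCH3 and HES1 depend on the length taken for HES1, given with its values. At 1 FPKM or more in both libraries, the level called detected here, stood 7 of the 10. The detected share was 40.9% of all identifiers and 61.5% of those with a symbol, so the count of 7 of 10 lies near the share of named genes and does not set the genes apart. Their median was 2.96 on the log2(FPKM + 1) scale, beside 0.22 for all identifiers and 2.29 for those with a symbol. With identifiers under 0.1 FPKM left out, which removes DLL4, the medians were 2.99 for the remaining Notch genes and 3.01 for all remaining identifiers, so the gap rests on identifiers at or near 0. HEYL lay just outside the detection level, with 0.744 FPKM in replicate 1 and 1.44 in replicate 2, and JAG2, at 1.86 FPKM in each library, was the nearest inside it.

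**Figure D1:**
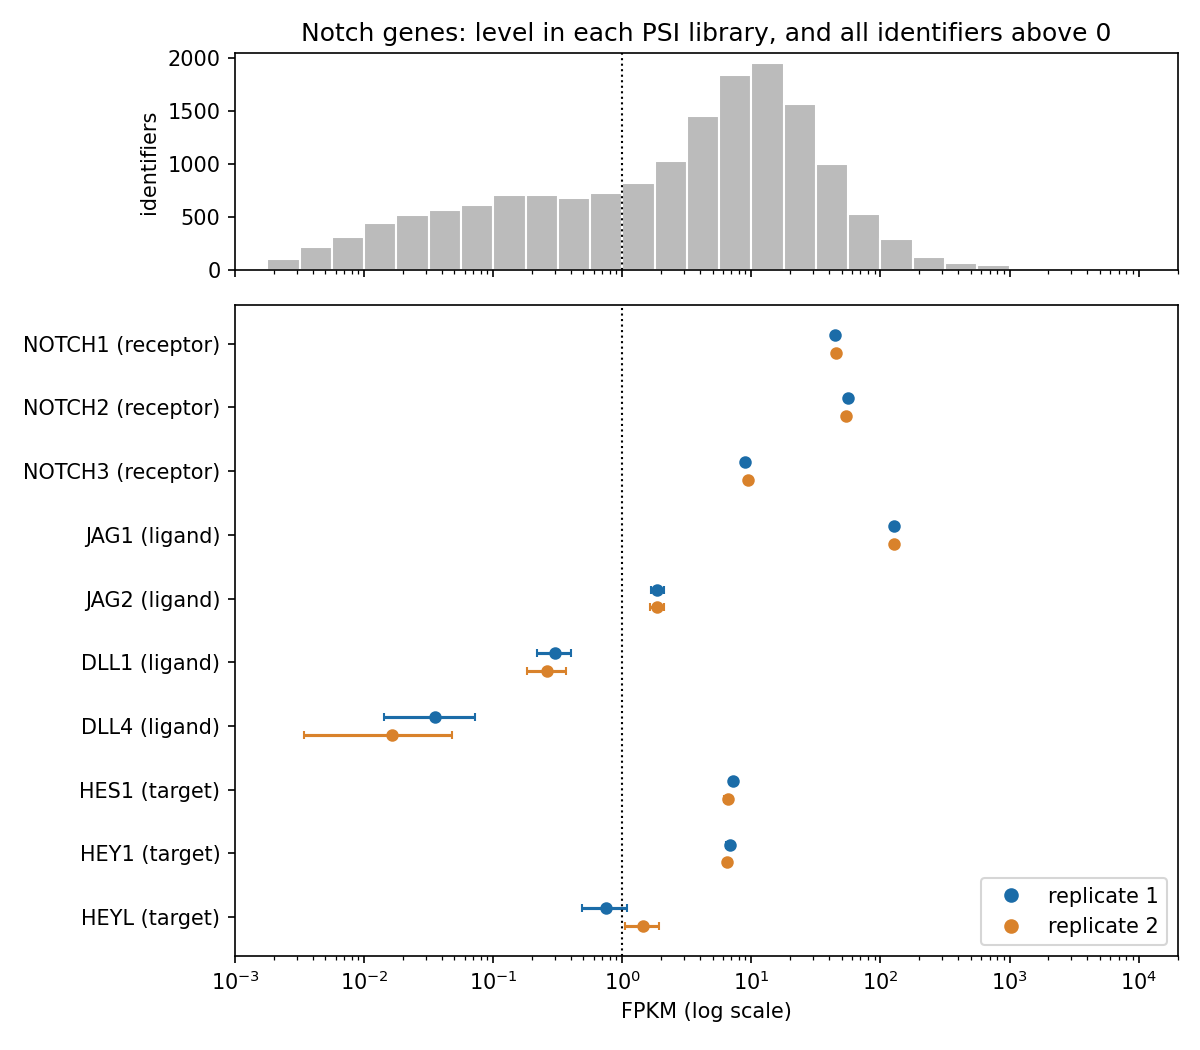
The lower panel plots FPKM on a log axis for each of the 10 Notch genes in replicates 1 and 2, with exact 95% Poisson intervals of the recovered reads as bars, and the upper panel counts all identifiers by mean FPKM, with the dotted line at 1 FPKM. JAG1 lies at 126 and 127 FPKM, whereas DLL4 lies at 0.0353 and 0.0165 with the widest intervals.

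Of the 4 Notch receptors 3 were detected, and NOTCH2 and NOTCH1 made up most of the total. NOTCH2 had 56.0 and 54.4 FPKM in replicates 1 and 2, from 17137 and 15247 reads, a mean of 55.2 ± 1.13 (SD, n = 2). NOTCH1 had 44.3 and 44.9 FPKM from 14417 and 13390 reads, a mean of 44.6 ± 0.440. In each library NOTCH2 lay above NOTCH1, by 1.27-fold and 1.21-fold, and neither the values of the libraries nor their counting intervals overlapped between these genes. NOTCH3, the receptor best known from vascular smooth muscle, had 8.99 and 9.34 FPKM from 3711 and 3533 reads, a mean of 9.16 ± 0.251. NOTCH1 exceeded it 4.93-fold in replicate 1 and 4.81-fold in replicate 2. The remaining receptor, NOTCH4, which is best known from endothelium, had 0.157 and 0.130 FPKM from 33 and 25 reads and was not detected by the rule.

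As shares of the summed FPKM of the receptors, which was 109 in each library, NOTCH2 held 50.6 ± 0.824%, NOTCH1 40.9 ± 0.576%, NOTCH3 8.40 ± 0.265% and NOTCH4 0.131 ± 0.0170% (SD, n = 2). NOTCH2 stood at rank 1086 of the table in replicate 1 and 1126 in replicate 2. NOTCH1 stood at ranks 1437 and 1420, and NOTCH3 at 5955 and 5870. Between 94.4% and 95.8% of all identifiers thus lay below NOTCH1 or NOTCH2. The RefSeq annotation of Sscrofa11.1 places NOTCH2 on chromosome 4 from 100951522 to 101152348 and NOTCH3 on chromosome 2 from 62364507 to 62402348, and lists NOTCH1 on a sequence not placed on a chromosome. The annotated spans of NOTCH2 and NOTCH3 each overlap an uncharacterised locus, and counting by strand is not stated, so reads from those loci cannot be told apart.

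Among the ligands, JAG1 was far above the others. JAG1, a Jagged ligand expressed by many mesenchymal and endothelial cells, had 126 and 127 FPKM in replicates 1 and 2, from 39771 and 36728 reads, with a mean of 127 ± 0.741 (SD, n = 2). It was the highest of the 10 genes and held 98.2% and 98.3% of the summed FPKM of the 5 canonical ligand genes. JAG2, its closest relative, had 1.86 FPKM in each library, from 289 and 264 reads, so JAG1 exceeded it 67.9-fold and 68.6-fold.

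The Delta-like genes were all under the detection level. DLL1 had 0.301 and 0.261 FPKM in replicates 1 and 2, from 44 and 35 reads, a mean of 0.281 ± 0.0280. DLL4, the main endothelial ligand of Notch, had 0.0353 and 0.0165 FPKM from 7 and 3 reads, with exact 95% Poisson intervals of 0.0142 to 0.0727 and 0.00341 to 0.0483 FPKM. DLL3, a divergent relative that acts mainly as an inhibitor of Notch within the same cell, had 0.0762 and 0.0333 FPKM from 5 and 2 reads. DLL1 lay above both in each library, while the ranges of DLL3 and DLL4 met, and at this depth their order was not resolved. Such intervals cover counting error alone. In a bulk library, a transcript carried by few cells and a low level in every cell cannot be told apart.

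JAG1 was also 1.15 and 1.17 times the summed FPKM of the 4 receptors in replicates 1 and 2. It stood at rank 411 of the table in replicate 1 and 406 in replicate 2, with 98.4% of identifiers below it in each. JAG2 stood at ranks 9842 and 9863, DLL1 at 12227 and 12391 and DLL4 at 14415 and 14978. RefSeq places JAG1 on chromosome 17 from 19591248 to 19629659, DLL1 on chromosome 1 from 198815 to 211346 and DLL4 on the same chromosome from 130376720 to 130386411. JAG2 is listed on an unplaced sequence. No other RefSeq gene overlaps the spans of JAG1, DLL1 and DLL4.

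The 3 target genes had much lower levels than JAG1, NOTCH1 and NOTCH2. HES1, a basic helix-loop-helix repressor and the most widely used readout of Notch activity, had 7.23 and 6.61 FPKM in replicates 1 and 2, from 949 and 795 reads, a mean of 6.92 ± 0.436 (SD, n = 2). HEY1, a related repressor that is a Notch target in vessels and heart, had 6.79 and 6.50 FPKM from 1150 and 1009 reads, a mean of 6.64 ± 0.202. The ranges of HES1 and HEY1 overlapped, so their order is not fixed by these libraries. The recovered model lengths of HES1 and HEY1, 3733 and 4817 bases, exceed their RefSeq spans of 1896 and 4168 bases. With the span as the length, a choice made after the data were seen, HES1 had 14.2 and 13.0 FPKM and stood above NOTCH3, and HEY1 had 7.84 and 7.51. HEYL, the HEY paralog best known from vascular smooth muscle, had 0.744 and 1.44 FPKM from 26 and 46 reads, a mean of 1.09 ± 0.490. It lay under JAG2 in both libraries, but the counting intervals of HEYL and JAG2 overlapped.

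Within the wider HES and HEY family these genes were not the most abundant. HES4, a close relative of HES1 that mice lack, had 60.2 and 61.4 FPKM in replicates 1 and 2, from 9768 and 9123 reads, and HEY2, a HEY repressor known from heart and arteries, had 17.6 and 16.9 from 2962 and 2599 reads. HES4 exceeded HES1 8.33-fold and 9.29-fold, and HEY2 exceeded HEY1 2.59-fold in each library. With the RefSeq spans of HES1 and HEY1 as their lengths, the folds were 4.23 and 4.72 for HES4 over HES1 and 2.24 in each library for HEY2 over HEY1. HES6, which is known as an inhibitor of HES1 rather than a usual Notch target, had 6.01 and 6.32 FPKM. Its range lay under that of HEY1 while their counting intervals overlapped. HES2 was listed at 0 in replicate 1 and had 0.0394 FPKM from 3 reads in replicate 2, and HES5, a Notch target of neural progenitors, was listed at 0 in both. HES7 was not analysed here. NRARP, which encodes a Notch target that acts as a negative regulator of the pathway, had 7.66 and 6.84 FPKM from 93 and 76 reads.

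Of the summed FPKM of the 8 measured HES and HEY genes, HES4 held 61.5 ± 0.590%, HEY2 17.4 ± 0.602%, HEY1 6.72 ± 0.232%, HES6 6.23 ± 0.196% and HEYL 1.10 ± 0.491% (SD, n = 2). HES1 held 7.33% and 6.66% in replicates 1 and 2, or 13.3% and 12.2% with those spans as lengths. The sum was 98.6 FPKM in replicate 1 and 99.2 in replicate 2. HES1, HEY1 and HEYL together had 14.8 FPKM in replicate 1 and 14.5 in replicate 2. RefSeq places HES1 on chromosome 13 from 131135970 to 131137865, HEY1 on chromosome 4 from 56859640 to 56863807 and HEYL on chromosome 6 from 95442655 to 95459597. Each of the 10 genes is annotated as protein-coding, and a value covers the whole counted gene model rather than 1 exon or transcript.

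**Figure D2:**
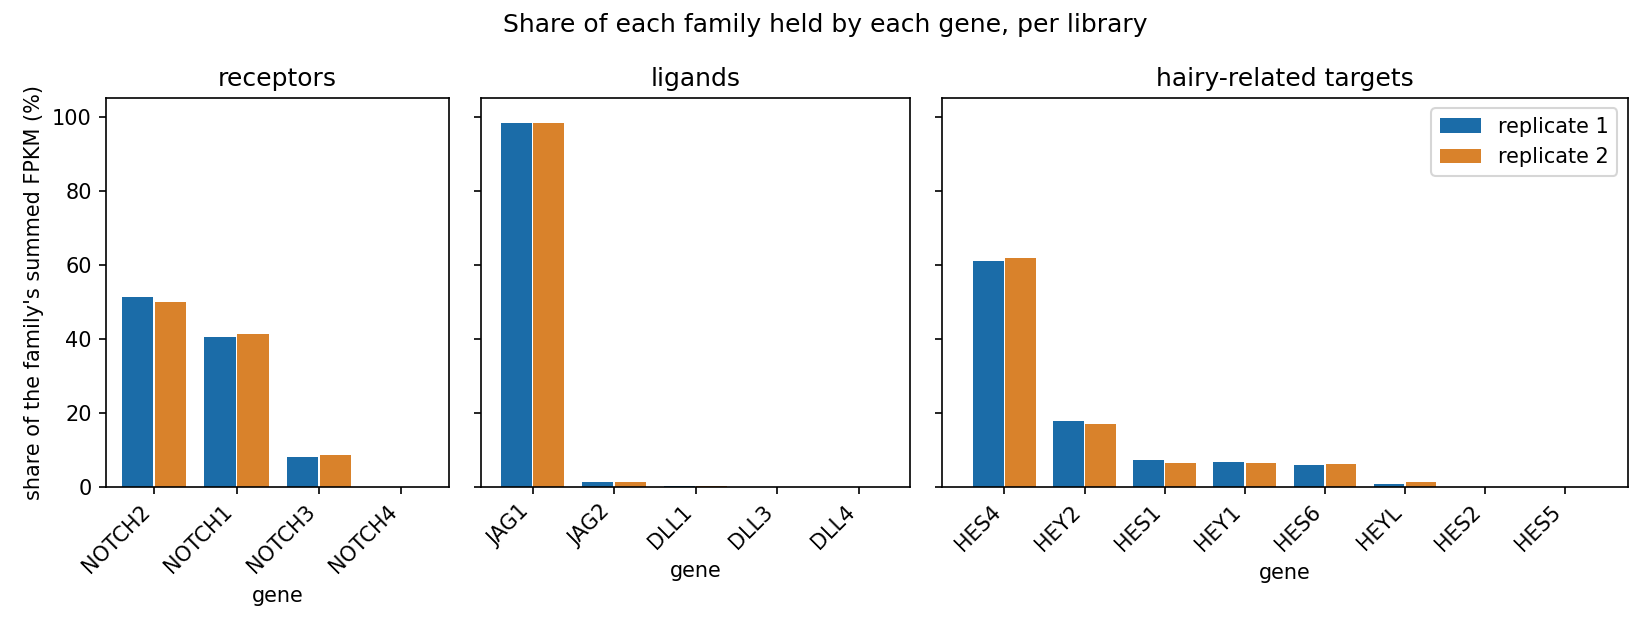
Bars give the share of a family's summed FPKM, in percent, held by each gene in replicates 1 and 2, for the 4 receptors, the 5 ligands and the 8 HES and HEY genes. NOTCH2 and NOTCH1 split most of the receptor sum, JAG1 holds 98.2% and 98.3% of the ligand sum, and HES4 holds 61.1% and 61.9% of the HES and HEY sum.

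The duplicate libraries lay within a few percent of each other for most of the 10 genes and farthest apart for DLL4 and HEYL. An exact two-sided binomial test compared the recovered reads of the libraries at each of 16327 identifiers with reads, with Benjamini-Hochberg adjustment over all of them. It called 1.11% of identifiers at an adjusted p under 0.05 and none of the 10 genes. By the same exact test 2 of the 10 were under 0.05 without adjustment, HEYL (p = 0.00657, adjusted p = 0.197) and NOTCH2 (p = 0.00924, adjusted p = 0.230), beside 10.2% of all identifiers. HEYL was 1.93-fold higher in replicate 2, and NOTCH2 was 0.971 times its replicate 1 level. For the other 8 genes the adjusted p by the same exact test ran from 0.534 (HES1) to 1 (JAG2). The test compares these libraries and no condition. Counting error alone would put a share of at most about 0.05 of identifiers under 0.05 without adjustment, and the share was 10.2%. The libraries thus lay farther apart than counting error, which is all the test allows for, so its p-values run too small.

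The log2 ratio of replicate 2 over replicate 1 was 0.95 for HEYL. That lies outside the central 95% of the 817 identifiers with a mean from 1 to 1.78 FPKM, -1.10 to 0.86. HEYL was the only one of the 10 genes outside the range of its own level. The log2 ratio was -1.10 for DLL4 and -0.20 for DLL1, and -0.13 for HES1. The other 6 genes lay between -0.06 (HEY1) and 0.06 (NOTCH3). The coefficient of variation was 44.9% for HEYL, against 0.584% for JAG1, 0.987% for NOTCH1 and 2.05% for NOTCH2. It was 51.3% for DLL4, and the lowest of the 10 was that of JAG2, 0.185%, at a level far under those of JAG1, NOTCH1 and NOTCH2. The recovered reads of HEYL are the smallest that fit its FPKM values. With reads and model length doubled, 52 and 92 reads fit as well, and the exact test gave an adjusted p of 0.0171. Doubling reads at a fixed ratio lowers this p by construction, and no other gene was doubled. That value therefore cannot decide whether HEYL differed between the libraries.

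**Figure D3:**
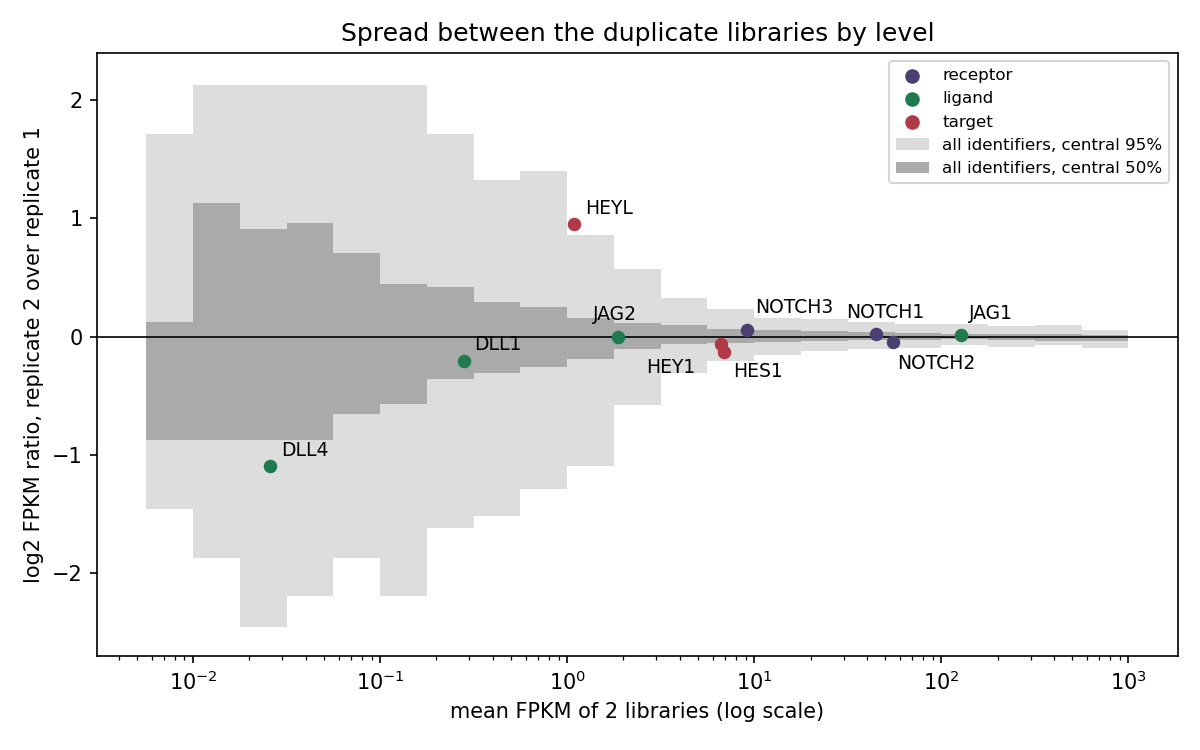
Each point is 1 of the 10 Notch genes, coloured by role, with its mean FPKM on a log axis and its log2 FPKM ratio of replicate 2 over replicate 1. Grey bands give the central 95% and 50% of all identifiers above 0 in both libraries, by level. HEYL lies above its band and the other 9 genes lie within theirs.

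The rest of the pathway was followed in 10 lists of Notch genes, which held 74 measured genes beside the 10. Of these 74, 57 were detected, with 61.5% of all identifiers with a symbol as the background. Their median was 3.24 on the log2(FPKM + 1) scale. Between the libraries, the exact binomial test called 1 of the 71 that could be tested, near the 1.11% called among all identifiers. The count does not set the list apart. The gene was MIB1, an E3 ubiquitin ligase that drives the ligand endocytosis needed to activate Notch, with 28.0 and 30.2 FPKM in replicates 1 and 2 (adjusted p = 0.0136 by the exact binomial test).

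Transcripts of the ADAM proteases and gamma-secretase subunits that serve receptor cleavage were all detected, 8 of 8, with a median of 16.4 FPKM. Among all identifiers with a symbol, 61.5% were detected. NCSTN, the gamma-secretase subunit nicastrin, had 29.2 ± 0.200 FPKM (SD, n = 2), PSENEN 25.3 ± 0.684 and APH1A 20.1 ± 0.895. The protease that cuts ligand-bound Notch, ADAM10, had 19.3 ± 0.963 and its relative ADAM17 had 9.24 and 8.88 in replicates 1 and 2. PSEN2, a catalytic presenilin, had 6.08 ± 0.0320. Of the genes for receptor glycosylation and maturation, 6 of 7 were detected. FURIN, the protease that processes the newly made receptor, had 56.3 ± 0.198 and POFUT1, which adds O-fucose to its EGF repeats, 39.7 ± 1.23. The Fringe enzymes, which extend that fucose and alter the response to Jagged and Delta-like ligands, were unequal. RFNG had 40.2 ± 1.18 FPKM and LFNG 9.72 ± 0.546, while MFNG had 0.0712 and 0.0467 in replicates 1 and 2. RefSeq spans of RFNG and LFNG overlap other genes, so their values are uncertain.

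Ligand endocytosis genes were detected in 6 of 7 cases, led by EPN1 (106 ± 0.692 FPKM; SD, n = 2), an epsin adaptor, DNM2 (49.9 ± 0.474), a dynamin, and MIB1 (29.1 ± 1.57). NEURL1B, a Neuralized-type ubiquitin ligase, had 0.763 and 1.00 FPKM in replicates 1 and 2. Of the genes for receptor trafficking and turnover, 12 of 13 were detected, with CCNC (30.7 ± 0.0677), ITCH (24.7 ± 1.41) and CDK8 (22.3 ± 0.0424) the highest. For both lists the background is the 61.5% of all identifiers with a symbol that were detected. CDK8 and its cyclin, encoded by CCNC, phosphorylate the cleaved receptor, and ITCH is a ubiquitin ligase of the full-length one. The Notch inhibitor NUMB had 13.5 ± 0.365 and FBXW7, which marks the cleaved receptor for degradation, 8.52 ± 0.189. DTX1, a Deltex gene often used as a Notch target in lymphocytes, was the list's only gene under 1 FPKM, with 0.382 and 0.469.

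In the nucleus, RBPJ, the DNA-binding factor through which the cleaved receptors act, had 10.9 and 10.5 FPKM in replicates 1 and 2. Of the nuclear complex list, 8 of 9 genes were detected, with SNW1 (30.3 ± 1.76; SD, n = 2), EP300 (15.9 ± 0.0582), an acetyltransferase recruited to the complex, and MAML1 (15.7 ± 0.640), a Mastermind-like coactivator, the highest. The Mastermind-like coactivators differed in level: MAML2 had 4.43 ± 0.0442 FPKM, and MAML3 had 0.213 and 0.286 from 48 and 59 reads. Corepressors, which hold RBPJ targets silent or assist HES and HEY proteins, were detected in 12 of 13 cases. CTBP1 (80.7 ± 0.603) and the histone deacetylase gene HDAC1 (76.9 ± 2.04) were the highest, and TLE2, a Groucho-type cofactor of HES proteins, with 1.05 and 0.940, was the exception. SPEN and CTBP2 were not analysed here. The detected share of all identifiers with a symbol, 61.5%, is the background for the nuclear complex and corepressor counts.

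Other secreted or membrane proteins that can bind Notch were mostly low. Of 9 measured genes, 1 was detected, THBS2, a thrombospondin that binds Notch3 and JAG1, with 6.28 ± 0.0445 FPKM (SD, n = 2). Of all identifiers with a symbol, 61.5% were detected. DNER had 0.876 and 1.18 FPKM in replicates 1 and 2, and the count was 2 with it where the level was 0.5 FPKM or replicate 1 was left out. After rescaling to TPM the count was 3, with DNER and MFAP2 added. In FPKM, the microfibril genes MFAP2 and MFAP5 had 0.490 and 0.686, and 0.0582 and 0.102. EGFL7 had 0.130 and 0.230, DLK2 0.149 and 0.0949 and DLK1 0.0127 and 0.00693, from 2 and 1 reads for DLK1. CNTN1 and CNTN6 were listed at 0 in both libraries.

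**Figure D4:**
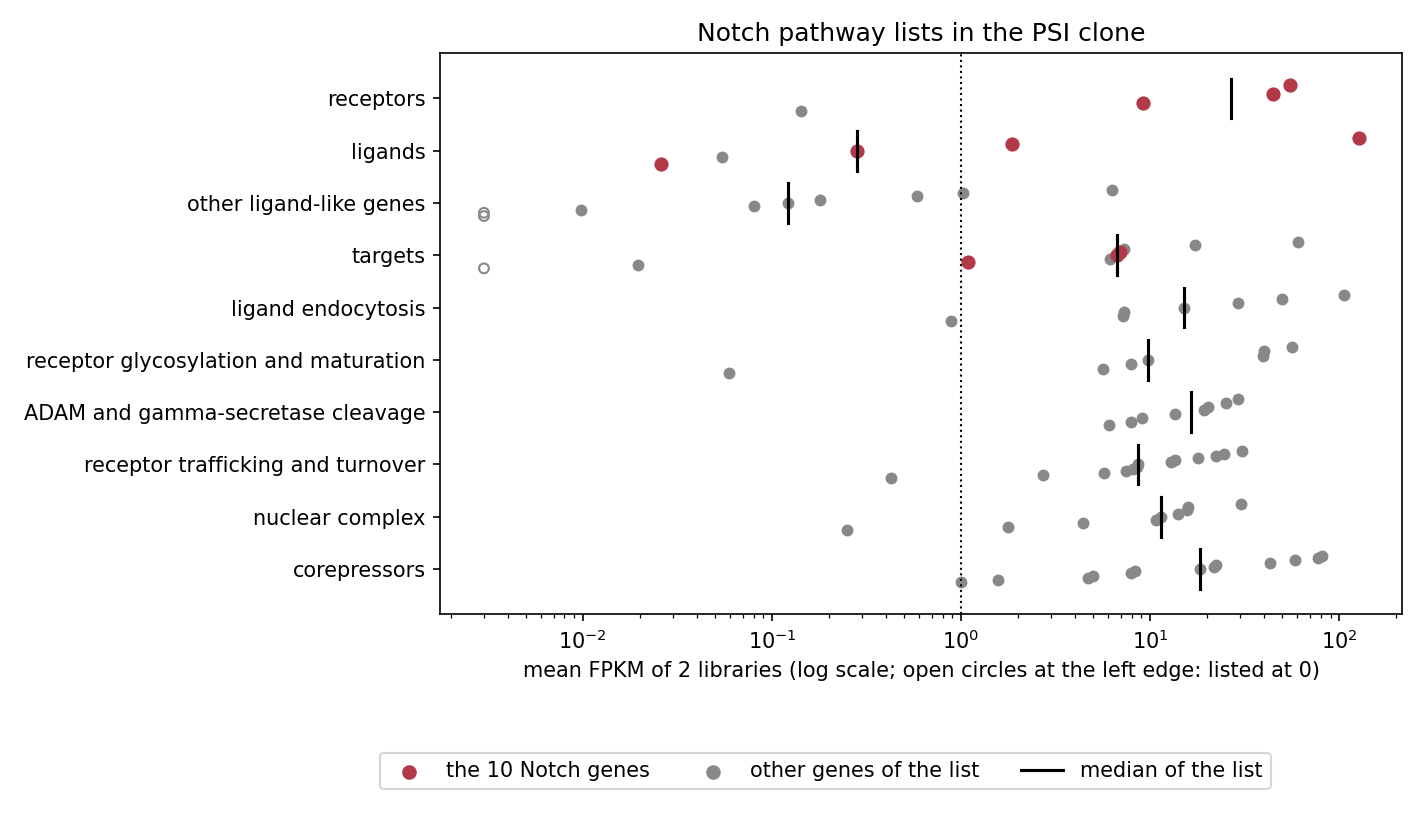
Each point is a gene of 1 of 10 Notch pathway lists at its mean FPKM over 2 libraries, on a log axis, with the 10 Notch genes in red, the median of each list as a black line and the dotted line at 1 FPKM. Receptor means run from 0.143 to 55.2 FPKM and ligand means from 0.0259 to 127. In the 6 lists from ligand endocytosis to corepressors, 52 of 57 genes lie at 1 FPKM or more in both libraries. The share of all identifiers with a symbol at that level is 61.5%.

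Markers of cell types of the ileum were also checked in the libraries of this cultured clone. The background for each count is the 61.5% of identifiers with a symbol that were detected. Of 7 measured endothelial markers 1 was detected, PECAM1, and the defining CDH5, KDR and TIE1 were listed at 0, with a summed level of 2.25 and 2.18 FPKM in replicates 1 and 2. DLL4 and NOTCH4, both best known from endothelium, were under 1 FPKM in the same libraries. Of 8 intestinal epithelium markers none was detected and 7 were listed at 0, among them ATOH1, the secretory cell factor repressed by Notch. Vascular mural cell and pericyte markers summed to 159 and 163 FPKM, with 3 of 8 detected (PDGFRB, CSPG4 and MCAM), ABCC9 listed at 0 and RGS5 with 0.00511 and 0. Smooth muscle markers summed to 1538 and 1501 FPKM, most of it from ACTA2 (702 and 685 FPKM), ACTG2 (489 and 468) and CNN1 (253 and 255). TAGLN, with 5.34 and 5.58 FPKM, and DES, with 2.74 and 3.06, lay far under these, above MYH11. The fibroblast list had 3 of 7 detected (PDGFRA, DCN and LUM), with a sum of 6.68 and 6.05 FPKM. For enteric glia 0 of 4 were detected and for enteric neurons 0 of 5, with sums under 1 FPKM. Leukocyte markers were detected in 2 of 6 cases, CD14 with 2.34 and 2.23 FPKM and CD68 with 1.17 and 1.32, with PTPRC and CD3E listed at 0 and sums of 3.77 and 3.74 FPKM, and markers of interstitial cells of Cajal in 1 of 3.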

How the data were processed

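RNA-seq was performed on 2 libraries of 1 pig cell clone. TRIzol extraction of total RNA preceded NEBNext Ultra library preparation, per the labels' protocols. Named in the submitters' processing notes are the build Sscrofa11.1, the aligner TopHat2 2.0.12 and the counter HTSeq 0.6.1. The annotation release, strand setting and filters were not given in these sources. As FPKM, the authors deposited 1 column per library, not pooled. Each value depends on the length of the gene model.

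A table of gene names gave symbols to 14857 of the 25880 identifiers. Coordinates are those of RefSeq, joined by symbol and not checked by position. Library totals and whole reads were recovered from the FPKM steps. Each gene received the shortest length from 50 to 30000 bases that made both values whole within 1.2 times their rounding, which was found for 16327 of 16327 identifiers above 0. These reads are the smallest that fit, may be a divisor of the true number, and summed to 90.8% and 90.8% of the totals. At 1 kb, 1 read was worth 0.0284 and 0.0310 FPKM. A gene at 0 gives no length. This procedure and the test below were tested on simulated data that held Poisson counting error only. How the test behaves with wider spread between libraries was not simulated. These libraries showed wider spread, with 10.2% of identifiers at an unadjusted p under 0.05 by the exact binomial test.

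Levels are means with SD over the libraries, and log2 values use a pseudocount of 1. Reads were compared by an exact binomial test with Benjamini-Hochberg adjustment (SciPy 1.17.1, statsmodels 0.14.6), which covers counting error only. Genes named were all 10, all receptors, ligands and targets, and of each other list the 3 highest and all under 1 FPKM, except where an item is not reported here. ADAM10, ADAM17, PSEN2, NUMB, FBXW7, LFNG, RBPJ and MAML2 were added for their role after their values were seen, and markers were drawn from fixed lists. With 1 group there is no pattern across conditions by which to name similar genes. The 10 genes and all lists were chosen with earlier results of these data known.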

Additional observations from a re-analysis of the deposited data

How the results depend on the processing

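Without replicate 1 or replicate 2, the genes detected among the 10 numbered 8 and 7, the added one being HEYL, and those of the 84 in all lists 67 and 65, against 7 and 64 with both libraries. With 0.5 or 5 FPKM as the level, or after rescaling to TPM, both counts stayed within 1.5 times. Of the smaller lists, the other Notch-binding genes numbered 2 or 3 in place of 1, as given with their values, and the ligands 1 in place of 2 at 5 FPKM. The median of the 10 genes was 2.78 with a pseudocount of 0.1 and 4.28 after rescaling to TPM, where the median of all identifiers was -1.91 and 0.54. It was 2.99 against 3.01 for all identifiers with those under 0.1 FPKM left out. The rescaling multiplied every value of a library by 2.71 or 2.72, which leaves the order within it. The binomial test called 0 of the 10 genes under each planned setting, with adjusted p from 0.143 to 0.227 for HEYL and from 0.158 to 0.230 for NOTCH2. With the reads and length of HEYL alone doubled, added after the data were seen, HEYL was called by the exact test (adjusted p = 0.0171). Doubling lowers the p by construction, so that call decides nothing about HEYL. The test called 179 identifiers in all with the median of the FPKM ratios as scale and 235 of the 10738 with a mean of 1 FPKM or more, against 182. Chosen after the data were seen, a length equal to the RefSeq span gave HES1 13.6 FPKM and HEY1 7.68, mean folds of 4.48 for HES4 over HES1 and 2.24 for HEY2 over HEY1, and turned the order of HES1 and NOTCH3. No paired analysis was possible because the design holds 1 group. Among the ligand, receptor and target genes above 0, depth limits DLL4, DLL3 and HES2 most, with 7 reads or fewer per library.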

Other observations

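The length of the counted gene model enters every FPKM value and differed in kind among the Notch genes. HES1 had a recovered model of 3733 bases, 1837 more than its whole RefSeq span of 1896, and HEY1 one of 4817 bases, 649 more than its span of 4168. Such an excess was found in 1.70% of the 11852 genes with a recovered length and 1 RefSeq gene of that symbol. Divided by the RefSeq span in place of the model length, a choice made after the data were seen, the reads gave 14.2 and 13.0 FPKM for HES1 in replicates 1 and 2, and 7.84 and 7.51 for HEY1. HES1 then stood above NOTCH3 (8.99 and 9.34 FPKM) in both libraries, whereas by the deposited values it stood under NOTCH3. By the deposited values HES1 stood above HEY1 in both libraries, but their ranges overlapped. With the span as the length of both genes, HES1 also stood above HEY1 in both libraries. Reads counted outside the RefSeq span, if any, would make these figures too high, and their number cannot be known from the table.

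Short models stood at the other end. NRARP had a recovered model of 345 bases within a RefSeq span of 2502, HES6 one of 771 within 1882 and HEYL one of 993 within 16943. Each of these lengths is a multiple of 3, as a coding sequence is, which holds for 39.8% of all recovered lengths. A recovered length is the shortest that fits, so a true length can be a multiple of it. Whether untranslated regions of these genes were counted was not tested.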
